A study of Sus scrofa with 12 samples.

Results

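The miRNAs of the miR-23, miR-24 and miR-27 clusters were examined in small-RNA libraries of porcine mesenchymal stromal/stem cells (MSCs) and of the extracellular vesicles (EVs) that these cells release. Members were chosen by name alone, as every mature miRNA listed under ssc-miR-23a, ssc-miR-23b, ssc-miR-24, ssc-miR-27a or ssc-miR-27b with any arm or copy suffix. This gave 8 of the 326 mature miRNAs in the table, held in 9 of its 385 entries, and all 8 were among the 220 miRNAs that could be tested. The 8 were miR-23a, miR-23b, miR-24-3p, miR-24-1-5p, miR-24-2-5p, miR-27a, miR-27b-3p and miR-27b-5p.

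MSCs had been isolated from the abdominal fat of 3 female domestic pigs aged 3 months, grown in medium with platelet lysate and taken at passage 3. EVs were collected by ultracentrifugation of the supernatants of these cultures, and no treatment or genetic change was named for either group. There were 3 MSC and 3 EV small-RNA libraries, 1 of each per pig, and the same number of mRNA libraries. The replicate numbers 1, 2 and 3 used here stand for the pigs. Each library pools the cells or vesicles of a culture, so fewer vesicles that carry a miRNA and less of it per vesicle cannot be told apart.

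miRNAs of the miR-23, miR-24 and miR-27 families are cut from short clusters of hairpins, of which mammals carry a pair, an a cluster with miR-23a and miR-27a and a b cluster with miR-23b and miR-27b. Each cluster also has a miR-24 hairpin, and both of these give the same mature miR-24-3p, while their 5p arms differ. Members of a cluster are made from a common primary transcript, and in each hairpin the 3p arm is usually the one loaded on Argonaute and retained. miR-27 is known as a brake on adipocyte differentiation, miR-23 and miR-27 for their part in blood vessel growth, and miR-24 for control of the cell cycle and of apoptosis.

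In the annotation used for the mRNA table (susScr3 by the submitters' processing notes), the b cluster lay on the minus strand of chromosome 10. MIR24-2 was placed from 31340334 to 31340413, MIR27B from 31340880 to 31340959 and MIR23B from 31341114 to 31341193, so that the 3 hairpins fell within 860 bp. MIR27A lay on the plus strand of chromosome 2 from 65582015 to 65582096. RefSeq (Sscrofa11.1), used here only for the order of neighbouring genes, places MIR23A, MIR27A and MIR24-1 next to each other on chromosome 2. On chromosome 10 it places MIR24-2, MIR27B and MIR23B beside C10H9orf3. In the pig, miR-24-1-5p is therefore an arm from the a cluster and miR-24-2-5p an arm from the b cluster. The mRNA libraries gave 0 reads on these 4 hairpin entries in every sample. An Ensembl entry over MIR27B was counted at 2, 4 and 0 reads across MSC replicates 1, 2 and 3 and at 1, 0 and 0 across the EV replicates, and the host gene had no entry under its symbol.

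The MSC small-RNA libraries held from 9455607 to 15395871 counts and the EV libraries 656888, 19454 and 18374, so a count of 0 allowed up to 3 counts, which corresponds to 4.57, 154 and 163 CPM (the counts scaled to a common library total) in EV replicates 1, 2 and 3. miR-21 alone took from 28.8% to 74.4% of the MSC counts, the highest share in MSC replicate 3, and from 8.19% to 13.6% of the EV counts. Scaling by the trimmed mean of M-values (TMM) gave MSC replicate 3 a factor of 0.306 and EV replicate 3 a factor of 3.24, which lowers every EV replicate 3 value and raises every MSC replicate 3 value relative to CPM. Of the MSC surface markers, NT5E, CD44 and ENG had reads in all mRNA libraries, and THY1 was listed at 0 reads with 49577 reads on an overlapping entry. Among markers of blood and endothelial cells, the leukocyte marker PTPRC had at most 10 reads in any library, CD14 had from 416 to 771, and the reads of PECAM1 numbered 215, 111 and 114 across the MSC replicates and 78, 20 and 31 across the EV replicates. The EV marker CD63 had from 8359 to 19616 reads, whereas CD9 had at most 7 and ITGB1 at most 3, each with an overlapping entry at 0 reads.

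miR-27b-3p, the retained arm of the b cluster hairpin, was the most abundant member in each of the 6 libraries when miR-24-3p was read from 1 entry. Its level was 18748, 20820 and 3296 CPM in MSC replicates 1, 2 and 3, and 4643, 2673 and 9796 CPM in EV replicates 1, 2 and 3. It ranked 10th, 8th and 16th of the 326 miRNAs in the MSC libraries and 19th, 33rd and 22nd in the EV libraries. Expressed in CPM, the groups overlapped, since EV replicates 1 and 3 lay above MSC replicate 3. After TMM normalization the levels were 17719, 19770 and 11074 CPM in MSCs and 5649, 3766 and 3671 CPM in EVs, and every EV library lay below every MSC library. The log2 fold change of EVs over MSCs was -1.89 (standard error, SE, 0.71; unadjusted p = 0.0306; adjusted p = 0.116 by the quasi-likelihood test of edgeR with Benjamini-Hochberg adjustment).

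miR-24-3p, the mature form shared by both clusters, was listed once for each of its hairpins, and the entry with the larger total was used. That entry had 9534, 6143 and 2197 CPM in MSC replicates 1, 2 and 3, against 429, 129 and 4490 CPM in the EV replicates. The EV values rested on 282, 2.5 and 82.5 counts. EV replicate 3 lay within the range of the MSC libraries in CPM, and the other EV libraries lay well below it. In TMM-normalized values the MSC libraries had 9011, 5833 and 7381 CPM and the EV libraries 522, 145 and 1672 CPM, with no overlap. The log2 fold change was -3.23 (SE 1.06, unadjusted p = 0.0179, adjusted p = 0.0873 from edgeR with Benjamini-Hochberg adjustment). The other entry, on the a cluster hairpin, had nearly equal counts, with 282, 2.5 and 81.5 in EVs. The 2 entries had fractions in 3 of the 6 libraries while their sum was whole in all 6, as when shared reads are divided between them. On that reading, 1 entry holds only a part of the miR-24-3p reads. With both entries summed, miR-24-3p had 19034, 12256 and 4385 CPM in MSCs and 859, 257 and 8925 CPM in EVs, and the log2 fold change was -3.29. On that sum, miR-24-3p was above miR-27b-3p in MSC replicates 1 and 3 and below it in the other libraries.

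miR-27a, the a cluster paralog of miR-27b-3p, had 3468, 2846 and 710 CPM in MSC replicates 1, 2 and 3. In EV replicates 1, 2 and 3 it had 92.9, 257 and 3265 CPM, from 61, 5 and 60 counts. EV replicates 1 and 2 were the lowest libraries and EV replicate 3 was among the highest. After TMM normalization every EV library (113, 362 and 1224 CPM) was under every MSC library (3277, 2703 and 2387 CPM). The share of all tested miRNAs without overlap was not counted. The log2 fold change of miR-27a was -2.30 (SE 1.09, adjusted p = 0.209 from edgeR), and its unadjusted p of 0.0719 from edgeR missed the threshold too. Without EV replicate 3 it was -3.89, with an adjusted p of 0.0195 from edgeR, but in that fit the median of all 243 miRNAs tested was -6.39, so miR-27a lay above the median.

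Fold changes of the miR-23 paralogs lay nearer to 0. miR-23a had 5472, 6647 and 887 CPM in MSC replicates 1, 2 and 3, against 3202, 1234 and 4544 CPM in the EV replicates, so the EV libraries lay inside the MSC range. Its log2 fold change was -0.97 (SE 0.80, adjusted p = 0.475 from edgeR). miR-23b, from the b cluster, had 3059, 2873 and 194 CPM in MSCs and 4228, 308 and 2476 CPM in EVs. It was higher in the EVs than in the MSCs of 2 pigs and lower in those of the other, and its log2 fold change was 0.07 (SE 1.16, adjusted p = 0.964 from edgeR). For both, the groups overlapped after TMM normalization as well.

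The 5p arms, usually the discarded strands of their hairpins, were far less abundant in MSCs. miR-24-1-5p, the arm particular to the a cluster hairpin, had 557, 404 and 158 CPM in MSC replicates 1, 2 and 3. In EV replicate 1 it had 1582 CPM from 1039 counts, above every MSC library, against 0 counts in EV replicate 2 and 1 count in EV replicate 3. miR-27b-5p had 36.5, 39.6 and 20.8 CPM in MSCs and 117, 0 and 2 counts in the EV replicates, of which the 117 came to 178 CPM. Here too EV replicate 1 stood above all MSC libraries, while the other EV libraries were at or under 3 counts. The log2 fold changes of miR-24-1-5p and miR-27b-5p were 0.47 (SE 1.73) and 1.04 (SE 1.29), with adjusted p-values of 0.892 and 0.633 from edgeR. Without EV replicate 1 they were -5.10 and -0.81.

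miR-24-2-5p, the arm particular to the b cluster hairpin, had 1008.5, 520 and 35 counts in MSC replicates 1, 2 and 3, or 65.5, 35.4 and 3.70 CPM, and 0 counts in all 3 EV libraries. Over the group, 3 counts in the 694716 EV counts correspond to 4.32 CPM, and the pooled MSC level was 39.5 CPM. The arm was thus at least 9.15-fold lower in EVs when counts are pooled over each group. EV replicate 1 held 656888 of these EV counts, and MSC replicate 3, at 3.70 CPM, lay under the pooled EV limit, so the bound does not hold pig by pig. The arm entered the fit only through its MSC counts, so no p-value is given for it. Only EV replicate 1 was deep enough to show it, since at 154 and 163 CPM the limits of the other EV libraries lay above every MSC value. EV replicate 1 therefore held 1039 counts of the a cluster arm of miR-24 and 0 of the b cluster arm. In MSC replicate 1 the corresponding counts were 8568.5 and 1008.5.

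**Figure D1:**
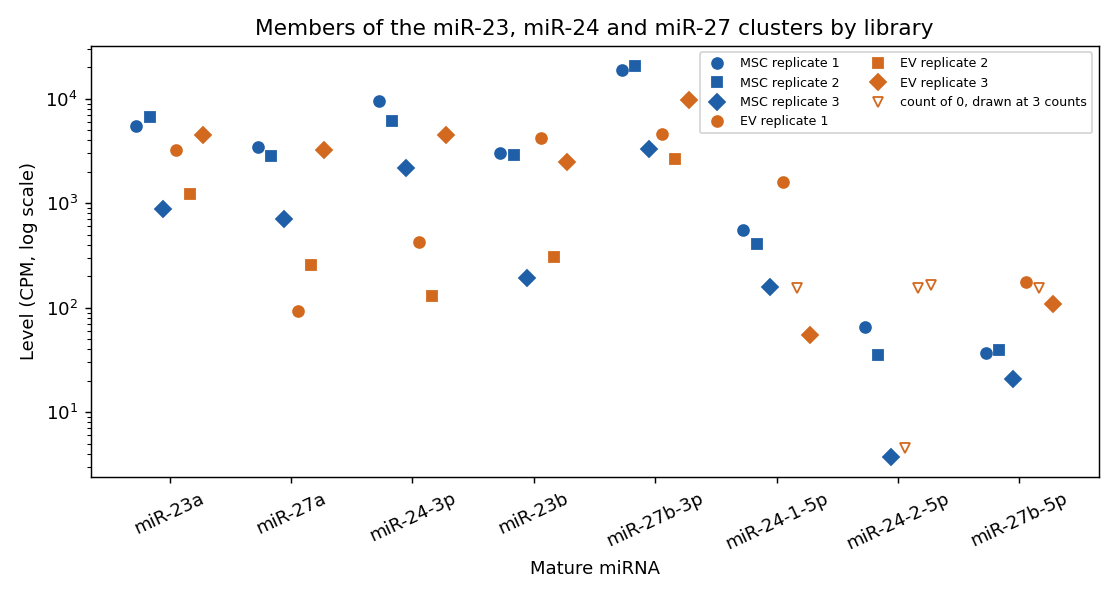
Levels of the 8 members in the 6 small-RNA libraries, in deposited CPM on a log axis, with blue symbols for MSC and orange symbols for EV replicates and open triangles for a count of 0 drawn at the CPM of 3 counts. Among members with counts in EVs, the EV libraries overlap the MSC libraries for all but miR-27b-5p, and miR-27a, miR-24-3p and miR-23b span more than 10-fold among EV libraries. The EV symbols of miR-27b-5p, at 178 CPM, the limit of 154 CPM and 109 CPM, lie above its MSC levels of 36.5, 39.6 and 20.8 CPM. They rest on 117, 0 and 2 counts, so neither overlap nor separation can be read for it. For miR-24-2-5p, at 0 counts in all EV libraries, the EV limits of 4.57, 154 and 163 CPM lie among or above the MSC levels of 65.5, 35.4 and 3.70 CPM, so no separation is shown.

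By the study's thresholds, a fold change over 2 with an unadjusted p-value under 0.05, 3 of the 8 members (miR-24-3p, miR-27b-3p and miR-24-2-5p) were lower in EVs. miR-24-2-5p passed the filter only through the MSC libraries, so its call had to point this way and adds no support. Among all 220 miRNAs tested, 24.1% were lower by the same rule. Tested miRNAs outside the members also had EV counts near 0, such as miR-140-5p with 0, 0 and 1, so this share may carry the same limit. No member was higher (0 of 8), against 6.36% of all miRNAs. With the adjusted threshold of 0.05, edgeR called 0 of the 8 members and 0 of the 220 miRNAs, of which 67 had an unadjusted p-value under 0.05. DESeq2 and edgeR's exact test called 0 of the 8 as well, although DESeq2 called 14 miRNAs higher and 14 lower overall and the exact test 2 and 12. limma on log2(CPM + 1) called 1 member lower, again miR-24-2-5p. Over the 8 members the median log2 fold change was -1.43, and 5 lay below 0. Over all 220 miRNAs it was -1.0, and 63.6% lay below 0. After TMM normalization the groups of miR-24-3p, miR-27a and miR-27b-3p did not overlap. How many of the 220 miRNAs separated in this way was not counted, so the separation is not read as particular to these members.

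The count of 3 depended on scaling and on single libraries. It was 1 with relative log expression (RLE) factors, with the upper quartile and with library totals, and that 1 was miR-24-2-5p, whose call adds no support. It was also 1 with the pig as a block. Without EV replicate 3 the count was 4. There miR-24-3p, miR-27a and miR-27b-3p had adjusted p-values of 0.0191, 0.0195 and 0.0470 in edgeR, and miR-24-2-5p was called as well. That fit called 20 of 243 miRNAs higher and 96 lower, with a median log2 fold change of -6.39, and miR-24-3p (-4.41), miR-27a (-3.89) and miR-27b-3p (-1.87) lay above that median. Without MSC replicate 1 or MSC replicate 2 the count was 0. Without EV replicate 1 it was 1, but none of the 3 passed there. The member called was miR-24-1-5p (log2 fold change -5.10), with 0 and 1 counts in EV replicates 2 and 3. With the pig as a block, miR-24-3p was the member still past the unadjusted threshold (log2 fold change -3.81, unadjusted p = 0.0175, adjusted p = 0.530 from edgeR). The scalings also moved the median of all miRNAs, from -1.0 with TMM to -0.49 with RLE, -0.03 with the upper quartile and 0.00 with library totals. Relative to that median, miR-24-3p and miR-27b-3p were lower in EVs under each of these scalings, as their log2 fold changes were -2.53 and -1.46 with RLE, -2.48 and -0.49 with the upper quartile, and -1.73 and -1.25 with library totals. miR-27a was also lower than the median under each, at -1.52, -1.23 and -0.85. Other fits placed miR-27b-3p above the median, at -1.88 against -2.53 when pigs were blocked and at -1.13 against -2.20 with limma on log2(CPM + 1), where miR-27a was near the median at -2.16. miR-23a changed sign, to 0.33 with the upper quartile.

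**Figure D2:**
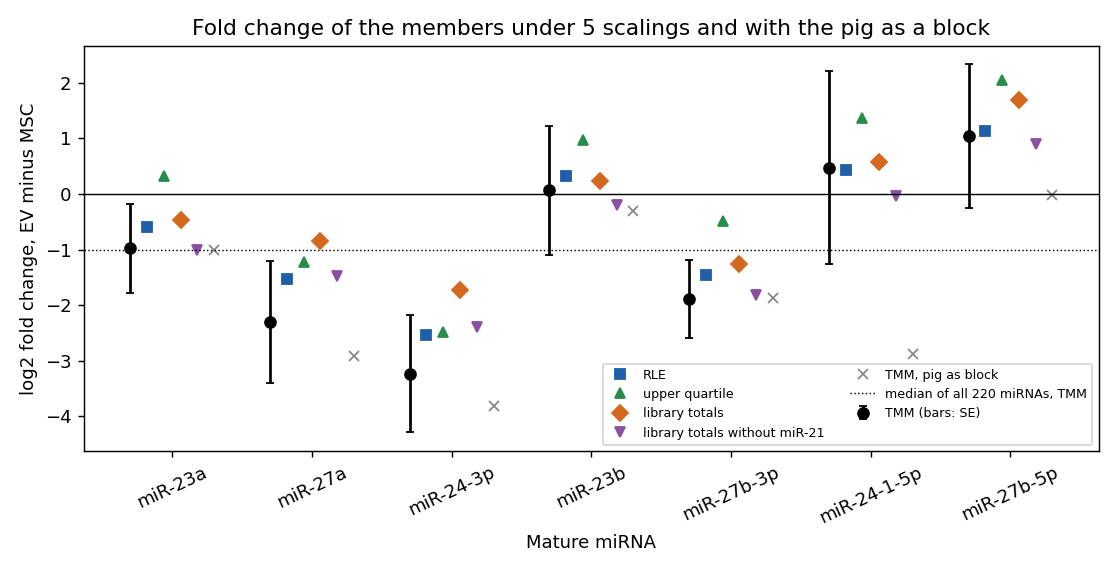
Log2 fold changes of 7 members (EV minus MSC) from edgeR under 5 scalings and with the pig as a block, with bars for the standard error of the TMM fit and a dotted line at its median over all 220 miRNAs. miR-24-3p, miR-27a and miR-27b-3p stay below 0 under each, from -3.81 to -0.49, while the signs of miR-23a, miR-23b, miR-24-1-5p and miR-27b-5p depend on the choice. miR-24-2-5p, at 0 counts in EVs, is left out.

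Ratios between members within a library do not depend on scaling. Of the 9 ratios formed, 4 had more than 3 counts on both sides in all 6 libraries and were tested. The log2 ratio of miR-23a to miR-27a, both of the a cluster, was 0.66, 1.22 and 0.32 in MSC replicates 1, 2 and 3, against 5.11, 2.26 and 0.48 in the EV replicates. EV replicates 1 and 2 thus had more miR-23a per miR-27a than any MSC library, and EV replicate 3 fell inside the MSC range. The difference of the means was 1.88 (two-sided exact permutation test, p = 0.3, Benjamini-Hochberg adjusted p = 0.6, n = 3 each), with 0.64 without EV replicate 1 and 2.95 without EV replicate 3. In the b cluster, the log2 ratio of miR-23b to miR-27b-3p was -2.62, -2.86 and -4.09 in MSCs and -0.14, -3.12 and -1.98 in EVs. Its mean difference was 1.44 (exact permutation p = 0.3, adjusted p = 0.6, n = 3 each), with 0.64 without EV replicate 1. Both ratios within a cluster had a higher mean in EVs, and neither difference exceeded the spread between libraries.

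The balance of the paralogs varied more among EV libraries than among MSC libraries. The log2 ratio of miR-23a to miR-23b was 0.84, 1.21 and 2.19 in MSC replicates 1, 2 and 3, against -0.40, 2.0 and 0.88 in the EV replicates (difference of means -0.59, exact permutation p = 0.5, adjusted p = 0.6, n = 3 each). As a share, miR-23b made up 35.9%, 30.2% and 18% of miR-23 counts in MSCs. In EVs it made up 56.9% (exact 95% interval 55.5% to 58.3%), 20% (7.71% to 38.6%, 6 of 30 counts) and 35.4% (27.2% to 44.2%). EV replicate 1 was the only library in which miR-23b outnumbered miR-23a.

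miR-27a made up 15.6%, 12% and 17.7% of the miR-27 counts in MSC replicates 1, 2 and 3. In EV replicate 1 it made up 1.96% (exact interval 1.5% to 2.51%, 61 of 3111 counts), in EV replicate 2 8.77% (2.91% to 19.3%, 5 of 57 counts) and in EV replicate 3 25% (19.7% to 31.0%, 60 of 240 counts). EV replicate 1 lay below and EV replicate 3 above all MSC libraries, both beyond counting error. The log2 ratio of miR-27a to miR-27b-3p had a difference of means of -1.03 (exact permutation p = 0.6, adjusted p = 0.6, n = 3 each), and without EV replicate 1 it was 0.02. That of miR-23a to miR-23b was likewise 0.02 without EV replicate 1. A comparison of 3 against 3 libraries cannot give an exact two-sided p under 0.1.

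miR-24-3p could be set against its cluster partners only with both entries summed, because the entry used had 2.5 counts in EV replicate 2. The summed log2 ratio of miR-24-3p to miR-23a was 1.80, 0.88 and 2.31 in MSC replicates 1, 2 and 3, against -1.90, -2.26 and 0.97 in the EV replicates. MSC libraries thus held more miR-24-3p than miR-23a, and EV replicates 1 and 2 held less. The difference of the means was -2.73 (exact permutation p = 0.2, n = 3 each), and EV replicate 3 overlapped the MSC libraries. Against miR-27a, the summed log2 ratio was 2.46, 2.11 and 2.63 in MSCs and 3.21, 0.00 and 1.45 in EVs, a difference of -0.84 (exact permutation p = 0.5, n = 3 each). These 2 ratios were formed with summed entries and were not part of the adjustment over 4.

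The arms of mir-24-1 were in a nearly constant proportion in MSCs. Its 5p arm made up 5.52%, 6.17% and 6.70% of the counts of miR-24-1-5p and miR-24-3p in MSC replicates 1, 2 and 3. In EV replicate 1 the share was 78.7% (exact 95% interval 76.3% to 80.8%, 1039 of 1321 counts), and in EV replicate 3 it was 1.2% (0.0305% to 6.53%, 1 of 83 counts). EV replicate 2 had 0 counts of 2 and gives no usable share. The usually discarded arm thus exceeded the retained one in EV replicate 1 alone, where both entries of miR-24-3p together had 564 counts. miR-27b-5p made up 0.194%, 0.190% and 0.628% of miR-27b counts in MSCs, 3.69% in EV replicate 1 (3.06% to 4.41%, 117 of 3167 counts) and 1.1% in EV replicate 3 (0.133% to 3.91%, 2 of 182 counts). EV replicate 2 had 0 of 52 counts of this arm, with an upper exact bound of 6.85%.

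**Figure D3:**
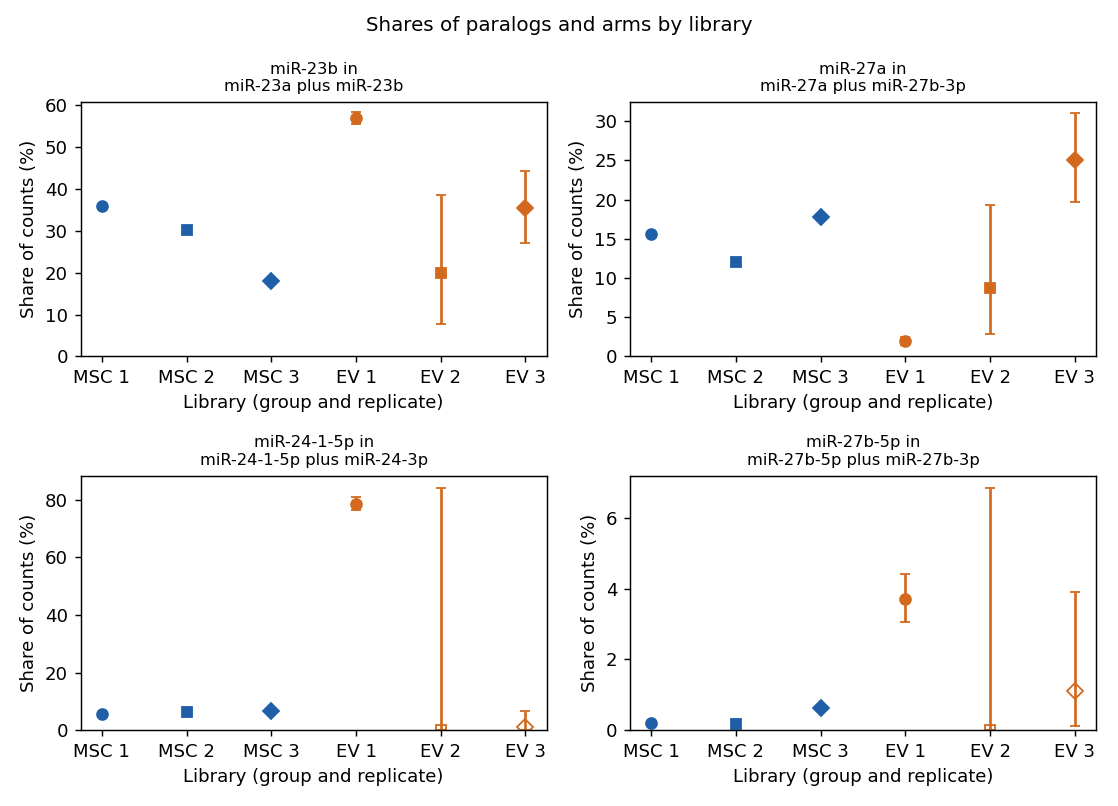
Shares of 4 members in each of the 6 libraries, in percent of the counts of a pair, with exact 95% binomial intervals and open symbols where a side of the pair had 3 counts or fewer. EV replicate 1 lies outside all MSC libraries in each panel, at 56.9% for miR-23b, 1.96% for miR-27a, 78.7% for miR-24-1-5p and 3.69% for miR-27b-5p, although for both 5p arms the intervals of other EV libraries are wide.

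Other hairpins also changed their major arm in EV replicate 1. Of 67 precursors with both arms listed and the same arm ahead in all 3 MSC libraries, 36 had at least 10 counts in EV replicate 1, and in 8 of these the arm that was minor in MSCs had more counts. The 8 were the precursors of miR-199a (both copies), miR-221, miR-2320, miR-24-1, miR-30e, miR-365-2 and miR-455. The corresponding counts were 2 of 20 precursors in EV replicate 2 and 1 of 30 in EV replicate 3. miR-24-1 was thus 1 of several, and mir-27b and mir-24-2 kept their major arm in the EV libraries. This count over all precursors was made after the arms of miR-24 had been seen.

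Summed over the 8 members, the level was 40939, 39808 and 7466 CPM in MSC replicates 1, 2 and 3, against 14356, 4601 and 24735 CPM in the EV replicates. EV libraries lay within the MSC range except for EV replicate 2, which was below it. The log2 difference of EVs over MSCs was -0.97 (two-sided exact permutation test, p = 0.5, n = 3 each), with a range from -1.78 without MSC replicate 3 to -0.29 without EV replicate 2. With both entries of miR-24-3p summed it was -1.15 (exact permutation p = 0.3, n = 3 each). In TMM-normalized values every EV library was below every MSC library, with a log2 difference of -1.71, and the exact permutation p was 0.1, the smallest that 3 against 3 allow (n = 3 each). With miR-21 left out of the totals, the members made up 5.51%, 5.69% and 2.70% of the counts in MSCs and 1.64%, 0.502% and 2.65% in EVs. The log2 difference was then -1.76 (exact permutation p = 0.1, n = 3 each), and MSC replicate 3 and EV replicate 3 nearly met. Those totals held all entries, while each member was taken from 1 entry. With 1 entry per miRNA in the totals too, the shares were 6.43%, 6.66% and 3.00% in MSCs and 1.81%, 0.579% and 3.26% in EVs. EV replicate 3 then lay above MSC replicate 3, so the groups overlapped.

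Set against other families within a library, the members had no shift that exceeded the spread. The log2 ratio of their summed counts to those of 9 let-7 and miR-98 miRNAs, which restrain growth and are abundant in differentiated cells, was -2.45, -2.56 and -3.04 in MSC replicates 1, 2 and 3. It was -3.92, -5.55 and -2.48 in the EV replicates, a difference of means of -1.30 (exact permutation p = 0.3, adjusted p = 0.45 over 3 families, n = 3 each). Against 13 miRNAs of the miR-17-92 cluster and its paralogs, which promote proliferation, the difference was -1.98 (exact permutation p = 0.3, adjusted p = 0.45, n = 3 each). Against 8 miRNAs of miR-199, miR-214 and miR-29, common in fibroblasts and other mesenchymal cells, it was 1.14 (exact permutation p = 0.5, adjusted p = 0.5, n = 3 each). The groups overlapped in all 3 comparisons, and single libraries moved the differences, to -0.52 for let-7 without EV replicate 2 and, without EV replicate 3, to -0.68 for miR-17-92 and 0.059 for miR-199, miR-214 and miR-29.

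The members differed in how alike they were over the 6 libraries. In TMM-normalized log2 CPM, Pearson's r within the b cluster was 0.969 between miR-27b-3p and miR-24-2-5p, 0.452 between miR-23b and miR-27b-3p and 0.268 between miR-23b and miR-24-2-5p, which was at 0 in every EV library. For miR-27b-5p, also of the b cluster, it was 0.366 with miR-27b-3p, 0.678 with miR-23b and 0.254 with miR-24-2-5p. Within the a cluster it was 0.759 between miR-23a and miR-24-1-5p, 0.340 between miR-23a and miR-27a and 0.176 between miR-27a and miR-24-1-5p. Across the clusters it ranged from 0.927 between miR-24-1-5p and miR-27b-5p to -0.13 between miR-23b and miR-27a. Outside the members, the miRNAs closest to miR-27a were miR-29a (r = 0.985), miR-221-3p (0.966) and miR-7142-3p (0.959). Those closest to miR-24-3p were miR-450a (0.968), miR-98 (0.968) and miR-140-5p (0.964), and those closest to miR-23a were miR-129a (0.974), miR-34a (0.933) and miR-455-5p (0.892). These values describe 6 libraries that share their depth and group structure, and the EV counts of several of these miRNAs were at or near 0.

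Paralogs could not be fully separated by the counting. Counts of miR-23a and miR-23b had fractions in 3 of the 6 libraries while their sum was whole in all 6, and the same held for miR-27a and miR-27b-3p in 1 library, as when a read that matches both is divided between them. Markers of other cell types were read in the same libraries. miR-126-3p, an endothelial miRNA, had 1220, 1138 and 1047 counts in MSC replicates 1, 2 and 3, against 0, 0 and 22 in the EV replicates, the last of which came to 1197 CPM. The 6 blood and endothelial miRNAs looked at (2 arms each of miR-126 and miR-142, miR-144 and miR-451) summed to between 79.5 and 113 CPM in MSCs, with 4 of 6 detected in each library. In EVs they summed to 0 CPM in replicates 1 and 2 and to 1361 CPM in replicate 3, where 4 of 6 were detected. In EV replicate 2 the limit of 154 CPM lay above the MSC level, and miR-144 was at 0 in every library. PECAM1, the endothelial adhesion molecule, was lower in EVs in the mRNA libraries by the unadjusted thresholds (log2 fold change -1.71, adjusted p = 0.249 from edgeR). EV replicate 3 was also the EV library with the highest CPM of miR-23a, miR-24-3p, miR-27a and miR-27b-3p. In TMM-normalized values it remained the highest for miR-24-3p and miR-27a but was the lowest EV library for miR-23a and miR-27b-3p. The part of the blood and endothelial markers in the result was not tested.

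The mRNA libraries of the same groups held from 10429085 to 12276855 reads on genes. A list of 23 mRNAs known as targets of these miRNAs was read in them, without regard to pig sites. Of the 23, 18 had an entry under their symbol and 12 had enough reads to be tested, 3 of 4 for miR-23, 2 of 8 for miR-24 and 7 of 11 for miR-27. By the unadjusted thresholds, 1 of the 12 was higher and 0 were lower in EVs, against 5.55% higher and 3.57% lower of all 12392 entries tested. With the adjusted threshold, edgeR called 0 of the 12 and 0 of all entries (1978 entries had an unadjusted p-value under 0.05), and DESeq2 called 1 of the 12 and 253 higher and 186 lower overall. The median log2 fold change of the 12 was 0.14, with 6 above 0, and that of all entries was -0.02. For the 7 miR-27 targets the median was 0.52, for the 3 of miR-23 it was -0.34 and for the 2 of miR-24 it was -0.38. The 2 of miR-24 were PAK4 and CDK4, and entries that overlap them held 14423 and 111 reads. Their values may therefore not hold all reads of these genes.

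The mRNA that was higher was SEMA6A, a transmembrane semaphorin that guides axons and growing vessels (ENSSSCG00000014224, chromosome 2 from 125465825 to 125529074). Its reads numbered 20, 30 and 54 across MSC replicates 1, 2 and 3 and 142, 346 and 204 across EV replicates 1, 2 and 3, with no overlap. After TMM normalization it had 3.00 ± 1.52 CPM in MSCs and 19.9 ± 7.55 CPM in EVs (SD, n = 3 each). This gave a log2 fold change of 2.73 (SE 0.50, adjusted p = 0.206 from edgeR), and it was higher in the EVs of all 3 pigs. The adjusted p was 0.0195 in edgeR with pigs blocked and 6.05e-05 in DESeq2. On the log2(RPKM + 1) scale the difference was 0.71, under the 2-fold threshold. How many of all mRNA entries had groups without overlap was not counted, for comparison with SEMA6A or with SFRP1 below.

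The 3 other targets with most reads were SFRP1, SMAD3 and XIAP. SFRP1, a secreted inhibitor of Wnt signaling, was counted at 74762, 93529 and 68826 reads across the MSC replicates and at 59358, 60065 and 40207 across the EV replicates. Every EV library was below every MSC library, and the log2 fold change was -0.58 (SE 0.36, adjusted p = 0.420 from edgeR). SMAD3, a signal transducer of TGF-β, was counted at 2249, 4142 and 1824 reads in MSCs and at 2139, 2570 and 1899 in EVs (log2 fold change -0.34, SE 0.38). The groups overlapped, and leaving out MSC replicate 2 turned the sign of SMAD3, to 0.22.

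XIAP and SEMA6D passed the unadjusted thresholds with the pig as a block, and SEMA6D is named because of that result. XIAP, an inhibitor of caspases, was counted at 383, 56 and 336 reads across the MSC replicates and at 446, 574 and 795 across the EV replicates. The log2 fold change was 1.36 without the block (adjusted p = 0.323 from edgeR) and 1.60 with it (adjusted p = 0.122 from edgeR). SEMA6D, another semaphorin, was counted at 6, 0 and 24 reads in MSCs and at 13, 16 and 87 in EVs, with log2 fold changes of 2.12 without the block and 2.24 with it (adjusted p = 0.402 and 0.133 from edgeR), but 0.48 without EV replicate 3. PPARG, the adipogenic receptor that miR-27 represses, was listed at 0 reads in every library, as were PLAU, CCNA2 and BCL2L11, each with an overlapping entry. The overlapping entries of CCNA2 and BCL2L11 held 91 and 148 reads, and those of PPARG and PLAU held 0. The levels of these mRNAs could not be read from this table.

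**Figure D4:**
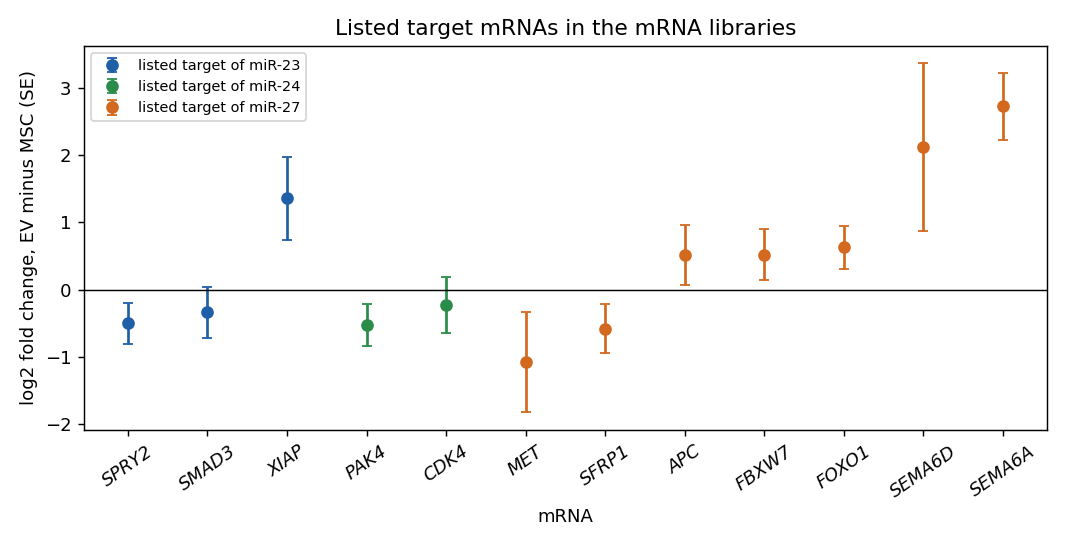
Log2 fold changes (EV minus MSC) of the 12 listed target mRNAs that could be tested, with bars for the standard error from edgeR, colored by the miRNA family that targets them. SEMA6A lies highest at 2.73, the miR-23 and miR-24 targets other than XIAP lie between -0.53 and -0.23, and MET, lowest at -1.08, is read from an entry on the opposite strand. The bounds of -0.53 and -0.23 are PAK4 and CDK4, whose overlapping entries held 14423 and 111 reads.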

How the data were processed

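miRNA reads were counted by the authors with CAP-miRSeq (v1.1 in their methods), and the table holds expected counts, in which a read that matches several precursors is divided between them, per the deposited values. The authors also deposited CPM, equal to these counts scaled to the column total. For mRNA, the deposited table gives raw counts per gene (TopHat, then featureCounts by the methods, while the processing notes name HTSeq) and the RPKM made from them by the authors. Processing notes name susScr3.

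Here, each mature miRNA was taken from its entry with the largest total, rounded to whole counts and fitted with edgeR 4.0.16 in R 4.3.3 (TMM, filterByExpr, quasi-likelihood test, Benjamini-Hochberg adjustment over all miRNAs). mRNA counts were fitted in the same way, with 3 misaligned entries left out. Ratios and sums were compared by two-sided exact permutation tests. Fits were tested on simulated data. Alternatives were RLE, upper-quartile and total scaling, DESeq2 1.42.0, the edgeR exact test, no filter, limma 3.58.1 on log2(CPM + 1), log2(CPM + 10) or log2(RPKM + 1), summed entries, the pig as a block and each library left out. The shares of paralogs and arms were added after their counts had been seen.

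Members, target lists and markers were chosen with earlier results of these data known. Every member is named. Targets are named when past the unadjusted thresholds, with 3 others with most reads, and for 3 members the 3 most alike miRNAs are given. A further listed target is not reported here. The pig labels pair the libraries within an assay (same-pig correlations of deviations in small RNA were -0.23, -0.02 and -0.13), although the titles number pigs differently in small RNA and mRNA, and the small-RNA pair of replicate 3, the libraries with the outlying TMM factors, carries a further label. p-values measure the spread between these 3 pigs. The binomial intervals and the limits behind zero counts describe counting error alone, as molecules were not tagged before amplification.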

Additional observations from a re-analysis of the deposited data

How the results depend on the processing

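Across the alternatives, the log2 fold change of miR-24-3p stayed below 0 (-3.81 to -1.73, and -4.41 to -2.63 with each library left out), as did those of miR-27b-3p (-1.94 to -0.49, and -2.21 to -1.48) and miR-27a (-2.91 to -0.85, and -3.89 to -1.74). miR-24-3p passed the unadjusted thresholds in 8 of 17 alternatives and miR-27b-3p in 6 of 17. The members lower by these thresholds, 3 in the fit reported, numbered 1 with DESeq2 and with the pig as a block, where it was miR-24-3p. They numbered 1 also with RLE, upper-quartile and total scaling, totals without miR-21 and limma with either pseudocount. That 1 was miR-24-2-5p, whose call adds no support. With each library left out they numbered 0 to 4, and the 1 without EV replicate 1 was miR-24-1-5p. miR-24-2-5p did not pass the filter without MSC replicate 1 or 2 and gives no value there.

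Signs turned for miR-23a with the upper quartile (0.33). They also turned for miR-23b with totals without miR-21 (-0.20) and the block (-0.30), with a range of -1.68 to 0.57 when each library was left out. miR-24-1-5p was -0.044 with totals without miR-21, -2.89 and -1.75 with limma on log2(CPM + 1) and log2(CPM + 10), -2.88 with the block and -5.10 to 1.08 with each library left out. miR-27b-5p was -0.25 with limma on log2(CPM + 1), -0.022 with the block and -0.81 to 1.58 with each library left out. The cause of these turns was not tested.

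The log2 ratio differences ranged from -1.18 to 0.024 for miR-23a to miR-23b and from -2.0 to 0.025 for miR-27a to miR-27b-3p with each library left out. The 10 alternatives for the summed level and the 24 for the ratios to other families kept their direction. Those with the pig as a block reuse the same difference and could not turn it. None of these tests could pass 0.05 (smallest p 0.1, or 0.25 with the pig as a block), so their side of the threshold says nothing on stability.

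Of all miRNAs, those higher by the unadjusted thresholds (14) numbered 27 with the upper quartile, 27 with DESeq2, 6 and 7 with limma on log2(CPM + 1) and log2(CPM + 10), 3 with the block and 3 to 24 with each library left out. Those lower (53) numbered 30 with DESeq2, 31 with limma on log2(CPM + 10), 14 with the block and 16 to 112 with each library left out. Past the adjusted threshold (0 in either direction), DESeq2 gave 14 higher and 14 lower, the exact test 2 and 12, limma 36 and 14 lower with the pseudocounts 1 and 10, and the fits without a library 0 to 20 higher and 0 to 96 lower, the highest without EV replicate 3.

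Targets higher (1) numbered 2 with DESeq2, 2 without the filter, 3 with the pig as a block and 1 to 2 with each library left out. Targets lower (0) numbered 0 to 1. With limma the target that passed was XIAP in place of SEMA6A. With each library left out, SMAD3 ranged from -0.59 to 0.22 and CDK4 from -0.41 to 0.021.

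Depth limits the low members. EV replicates 2 and 3 held 19454 and 18374 counts, where 3 counts correspond to 154 and 163 CPM, above the level of miR-24-2-5p and miR-27b-5p in every MSC library.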
